A study of Solanum lycopersicum with 4 samples.

Results

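The sites described here are places on tomato cDNAs where a small RNA was predicted to pair closely and where cut RNA ends were found, on genes whose annotation lacks the words of the well known microRNA target classes. A site is a cDNA of the ITAG2.3 tomato gene models and a position on it. Sites were taken where the alignment penalty score was 4 or less, a lower score being a better match. Genes were left out when their annotation held any of 13 words or phrases: AP2-like, squamosa, growth-regulating, auxin response factor, GRAS, NAC domain, homeodomain-leucine, factor Y, argonaute, MYB, TCP, F-box and resistance protein. This left 716 of 12619 distinct sites, on 284 of 5373 cDNAs and under 32 small RNA names. For comparison, 197 sites on 100 cDNAs had a class word and the same pairing limit, and 11230 sites had no class word and a penalty above the limit. The rule used neither the tags nor their category, so both can be described for these sites.

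The libraries came from whole fruits of Solanum lycopersicum variety Ailsa Craig, grown in a greenhouse on rockwool with a liquid nutrient feed and given no other treatment in the labels. There was 1 library for each of 4 stages, named in the labels as 5 days after pollination, then mature green (full-sized but unripe), then breaker (first colour) and last 7 days after breaker, called red ripe in the file headers. Values given in stage order follow this sequence. No stage has a replicate, so every difference between stages is a difference between 2 libraries with no replicate check. The sources used here do not state how many fruits or plants went into a library. Tags of all tissues of the fruit, seeds included, were measured together, so fewer cells of a type and less cut RNA per cell cannot be told apart.

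A plant microRNA guides an Argonaute protein to a closely paired mRNA, which is then sliced opposite position 10 of the microRNA, counted from its 5′ end. The 3′ piece keeps an uncapped 5′ end until it is degraded. PARE (parallel analysis of RNA ends) sequences short tags from such uncapped, polyadenylated fragments, so a slicing site appears as a pile of tags at a single base, while general decay spreads tags along the transcript. Values are in TP10M (tags per 10000000 tags), which the authors rounded to whole numbers. Each listed peak also has a CleaveLand category: 0 is the single highest position of the cDNA, 1 a shared highest position, 2 and 3 are lower peaks and 4 is a single read. Peaks of category 4 all stood at 0 TP10M in the tables, and a dash in the tables means that no peak was listed in that library. Peaks were tabulated separately opposite positions 9, 10 and 11, and the neighbours of position 10 show how sharply the ends were placed.

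The libraries listed 402, 383, 247 and 401 of the sites in stage order, fewest at breaker. Over all sites the numbers were 7215, 6460, 3328 and 5922 in the same order. Library totals are not given, so the depth behind a value is unknown. Median-of-ratios size factors over 1021 cDNAs were between 0.776 (breaker) and 1.13 (5 days after pollination). Sums of whole-cDNA tags over marker genes rest on those listed in each library. Of 7 ripening genes, 3, 2, 3 and 3 were listed in stage order, with 1101, 2302, 23083 and 19422 TP10M. Of 4 photosynthesis genes, 4, 3, 3 and 0 were listed, with 15404, 2693 and 589 TP10M in the first 3 libraries. Of 19 seed protein genes, 2, 14, 8 and 16 were listed, with 1237, 211830, 7084 and 11805 TP10M, and the mature green value was the highest although more genes were listed in the last library. The part of these differences in the results below was not tested.

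Most of these closely paired sites carried few cut ends. Of the 716 sites, 295 had a highest peak of 0 TP10M and 528 (73.7%) had a highest peak of 0 or 1 TP10M, against 53.3% of class sites and 80.4% of all sites. The median of the highest peak was 1 TP10M for these sites, for class sites and for all sites. Peaks of at least 5 TP10M in at least 1 library occurred at 56 sites (7.82%), against 6.3% of all sites, a share near that background. Without the breaker library, an alternative chosen after seeing the data, 37 sites reached it. A peak of 10 TP10M was reached by 34 sites, a count given without its share among all sites. 100 sites were listed in all 4 libraries and 324 in 1 library.

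A single name, miR414, accounted for most of the list. It had 557 sites (77.8%) on 195 cDNAs, while it had 22.4% of all distinct sites in the tables. miR414 was first described in Arabidopsis; it is known for a sequence made largely of repeats of a trinucleotide, and its standing as a microRNA has been questioned. Its matches recurred along the same cDNAs: 8 cDNAs had at least 4 alignments each and held 123 sites, and all 8 were annotated as Unknown Protein. Solyc05g041190 had 13 alignments and 28 sites, and Solyc03g053030 had 10 alignments and 22 sites. Of the 195 cDNAs, 57 (29.2%) were annotated as Unknown Protein, against 2 of the 89 cDNAs under the other names.

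The other names shared 159 sites on 89 cDNAs, with 1 alignment on each cDNA. miR5303 had 19 sites and miR396 had 18. Next came miR159 with 10, miR172 and miR1917 with 9 each, and miR6023 and miR6024 with 8 each, while 21 names had 5 sites or fewer. The best matches were of both kinds. Of 25 sites with a penalty of 1 or less, 18 were under miR414, 6 under miR6022 and 1 under miR6023. None of those 18 miR414 sites had category 0 or 1, and their highest peak was 5 TP10M.

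Peaks that stood out on their cDNA, of category 0 or 1 in at least 1 library, were found at 18 sites on 17 cDNAs, which is 2.51% of the sites against a background of 1.5% of all sites. Position 10 had 13 of them among 257 sites, which is 5.06% (95% exact Clopper-Pearson interval 2.72 to 8.49), against a background of 3.04% of all position 10 sites. Position 9 had 2 among 232 sites (0.862%, background 1.07%). Position 11 had 3 among 227 sites (1.32%, background 0.313%), but the position 11 table held no peak of these categories for any site in the first 2 libraries. These intervals cover counting error over sites only, and sites on related genes are not independent.

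The position 10 sites were also split into miR414 and the other names, a split chosen after seeing the data. Under miR414, 3 of 193 sites had category 0 or 1 (1.55%, 95% exact interval 0.322 to 4.48). Under the other names, 10 of 64 had it (15.6%, interval 7.76 to 26.9). Class sites had 55 of 92 (59.8%, interval 49.0 to 69.9), and sites above the penalty limit without a class word had 50 of 3808 (1.31%, interval 0.976 to 1.73). The miR414 share thus lay within 1 percentage point of the share among poorly paired sites. The interval of the other names overlapped with neither that of miR414 nor that of the class sites. As the split was chosen from these data, this is a description only. Such intervals also treat sites as independent. Of the 10 sites under other names, 4 were miR6022 sites on related genes, 3 of them with identical values. With these 4, 6 of the 10 belonged to the further known classes described below. Another was on a growth regulating factor, a class gene whose annotation lacks the hyphen of the class word. For all names together the position 10 share was 5.06%, and 3.67% with further target class words left out. All 5 peaks of category 0 or 1 opposite positions 9 and 11 were under miR414. That name also held most sites there, 185 of 232 opposite position 9 and 179 of 227 opposite position 11. In the authors' deposited table, 6 sites had a q-value of 0.05 or less, all opposite position 10 and none under miR414. No background share over all sites is given for this count. The q-values were given only at category 0 or 1, and opposite position 11 none were given for 5 days after pollination or mature green. Under miR414 the given q-values were 0.08 to 0.38. The count is therefore not read as a difference between positions or names.

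By stage, the position 10 share was 3 of 146 (2.05%), 8 of 132 (6.06%), 4 of 92 (4.35%) and 6 of 129 (4.65%) in stage order. The backgrounds were 2.84%, 3.7%, 3.4% and 2.54%. The first library was the only one with a share under its background, but its exact interval (0.426 to 5.89) covered that background. These backgrounds include the class sites. Sites above the penalty limit without a class word had 0.768%, 1.06%, 0.856% and 0.57%, below the shares here in every library. Under names other than miR414 the shares were 1 of 36 (2.78%), 6 of 41 (14.6%), 4 of 21 (19.0%) and 6 of 33 (18.2%). Their exact intervals overlapped between all stages. 12 of the 18 sites stood out in 1 library, 4 in 2 libraries, 2 in 3 and 0 in all 4.

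**Figure D1:**
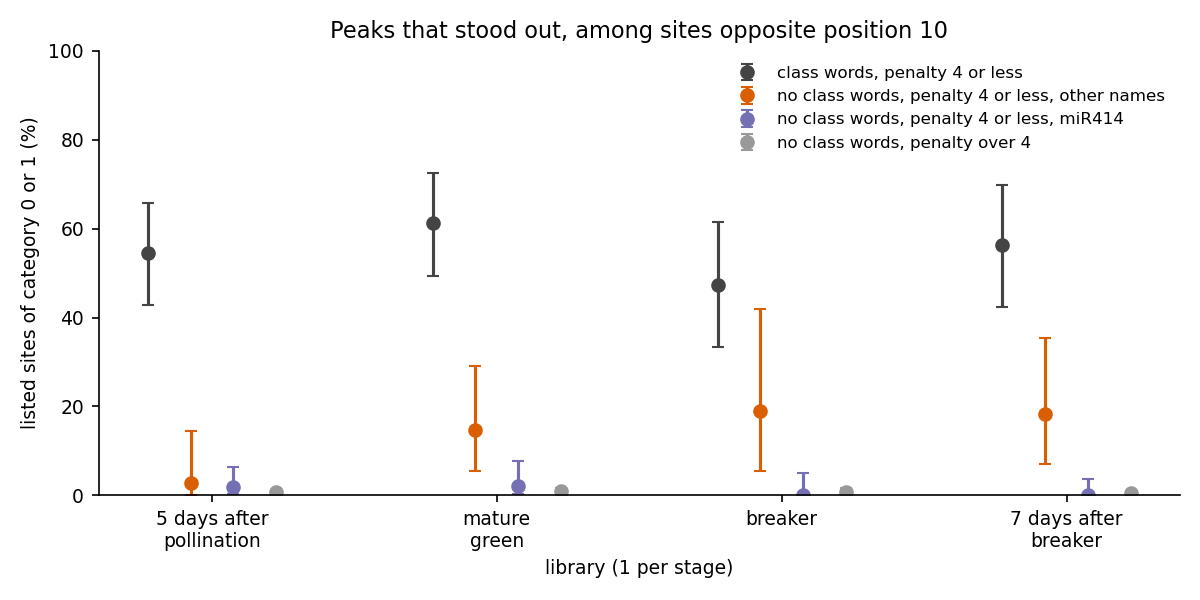
Share of listed position 10 sites with category 0 or 1 (y axis, %) in each library (x axis), for class sites, for well paired sites without a class word under miR414 and under the other names, and for sites above the penalty limit. Points are shares and bars are exact 95% intervals over sites. The other names reached 19.0% at breaker, between the miR414 sites and the class sites. The split by miR414 was chosen after seeing the data.

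Tag sums also differed by name, through a few sites. Summed over all 716 sites, the libraries held 621, 594, 663 and 620 TP10M. Position 10 carried 330, 367, 321 and 309 of these, which is 53.1%, 61.8%, 48.4% and 49.8%. Class sites had 97.6%, 97.4%, 98.0% and 96.2% of their tags opposite position 10, and sites above the penalty limit had 34.6%, 34.5%, 29.9% and 33.9%. The sites therefore lay between those groups. Under the other names position 10 carried 132, 221, 253 and 186 TP10M, or 65.3%, 83.4%, 93.0% and 79.1%. Of these tags, 85, 153, 239 and 142 TP10M lay at 6 sites of at least 20 TP10M: the methyltransferase, the growth regulating factor, the superoxide dismutase and 3 receptor-like protein (RLP) gene copies whose shared value was counted for each. These 6 were chosen by their level opposite position 10. The rest of the other names had 47 of 117, 68 of 112, 14 of 33 and 44 of 93 TP10M there, or 40.2%, 60.7%, 42.4% and 47.3%. Under miR414 it carried 198, 146, 68 and 123 TP10M, or 47.3%, 44.4%, 17.4% and 31.9%.

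**Figure D2:**
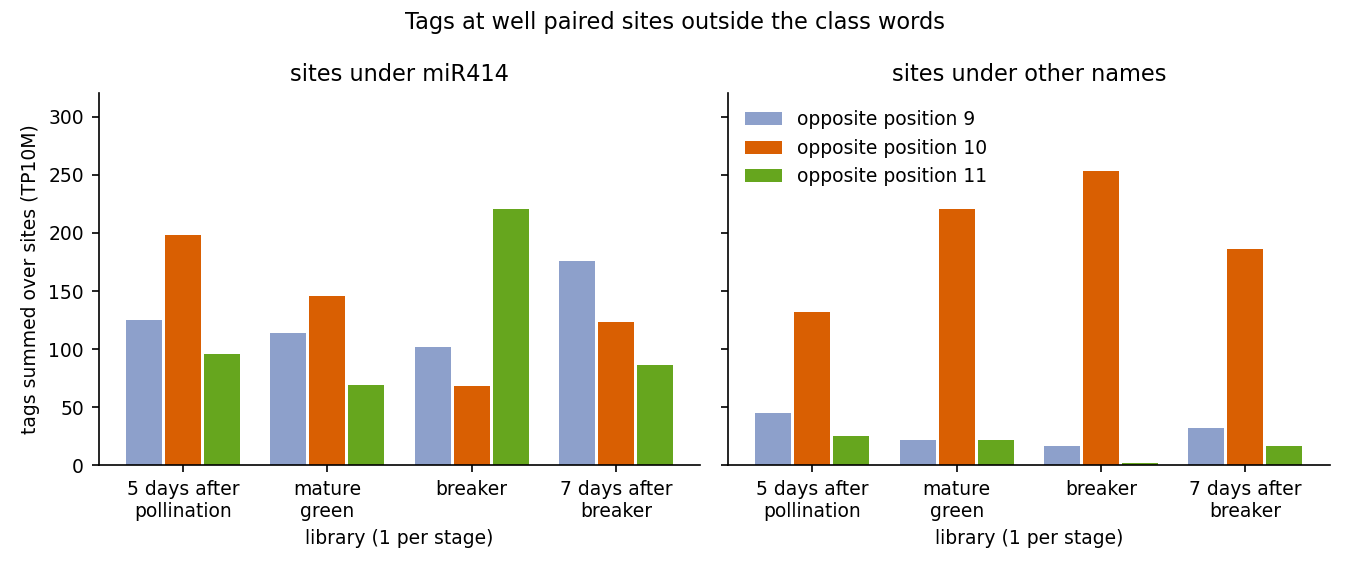
Tags summed over sites (y axis, TP10M) opposite positions 9, 10 and 11 in each library (x axis), for miR414 sites at left and all other names at right. Position 10 is highest in every library at right, reaching 253 TP10M at breaker. At left position 11 is highest at breaker with 221 TP10M and position 9 at 7 days after breaker. Values shared by several sites are counted at each.

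The genes that stood out opposite position 10 were few, and several fall by role into groups that plant microRNAs are known to target under other wordings. Pairs of a small RNA name and an annotation word from a list of further known classes, such as miR395 with sulfate transporters, took in 22 sites on 15 cDNAs. Of those sites 6 had category 0 or 1, 3 of them RLP gene copies with identical values. Over all sites 189 of 12619 (1.5%) had it. The list also paired miR396 with methyltransferases, so the methyltransferase with the highest peak is among the 6. That list was chosen with earlier results of these data known. The phrase "outside known target classes" thus holds for the 13 words and not for all known targets. Chromosome numbers below are those in the gene identifiers, and positions are on the cDNA.

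3 of the genes that stood out, a transcription factor, a DNA methyltransferase and a MADS-box protein, were under miR396, whose known targets in many plants are growth-regulating factors (GRFs), transcription factors that sustain cell division in young organs. Solyc04g077510 (chromosome 4, position 895, penalty 3.5) is annotated as Growth regulating factor 1, without the hyphen that the class word has. Its site had 77, 15, 4 and 1 TP10M in stage order. The youngest fruit was highest and each later library lower, with a log2 difference (value plus 1 TP10M) of -2.29 between the first 2 libraries. The whole cDNA had 613, 67, 13 and 18 TP10M, so the site held 12.6%, 22.4%, 30.8% and 5.56% of its tags. The site thus had fewer tags in older fruit together with its cDNA, while its share of the cDNA was highest at breaker. It had category 0 in the first 3 libraries and no tags opposite positions 9 or 11.

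Solyc02g062740 (chromosome 2, position 1161, penalty 3.5), annotated as a DNA cytosine-5 methyltransferase, an enzyme type that methylates DNA, had the highest peak of the list. Its site had 1, 17, 142 and 14 TP10M in stage order, with the breaker library far above the others. Here the cDNA total did not rise with the site: it was 315, 267, 258 and 189 TP10M. The site thus held 0.317%, 6.37%, 55.0% and 7.41% of the cDNA's tags. The total includes the site's own tags, 142 of 258 TP10M at breaker, so the rest of the cDNA had its fewest tags there. Over the 4 libraries 96.7% of the tags of its alignment lay opposite position 10.

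Another miR396 site lay on Solyc01g066730 (chromosome 1, position 195, penalty 4), a MADS-box protein, a transcription factor type with many roles in flowers and fruits. It was not listed in the youngest fruit and had 5, 2 and 2 TP10M in the later libraries. It had category 0 at breaker only, where 6 TP10M on the whole cDNA made its 2 TP10M a share of 33.3%. Such a call rests on few tags. In the authors' deposited table its q-value at breaker was 0.03.

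Receptor-like proteins formed a group of related genes. RLPs carry leucine-rich repeats outside the cell, and in tomato several give resistance to fungal pathogens; miR6022 and miR6023 are known in the nightshade family to target such genes. All 6 sites of miR6022 lay on chromosome 1 RLP genes, opposite position 10 and with a penalty of 1. Solyc01g005720 (position 524), Solyc01g005760 (position 1254) and Solyc01g005870 (position 1197) had the same values: not listed at 5 days after pollination, then 27, 8 and 30 TP10M. Mature green and the last library were high and breaker was lower. These 3 sites on related genes are not taken as independent; whether the same tags were counted on each copy was not tested. Nothing was listed for them opposite positions 9 or 11.

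The cDNA totals did differ between the RLP copies. The site held 26.0%, 4.19% and 27.0% of the tags on Solyc01g005870 in the last 3 libraries, and 11.5%, 2.68% and 15.1% on Solyc01g005720. On Solyc01g005760 it held 3.96%, 0.755% and 4.9%, and there only the last library had category 0. In each copy the breaker share was the lowest of the 3. The authors' deposited table gave all 3 copies a q-value of 0.06 in the last library, and Solyc01g005720 and Solyc01g005870 0.07 at mature green, above the limit of 0.05 despite the near-perfect pairing.

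The remaining RLP sites were close to empty with the same penalty of 1. Solyc01g006550 had 2 TP10M with category 0 at mature green and 0 in both later libraries. Solyc01g005730 had 1 TP10M at mature green and no other listing, and Solyc01g009690 was listed at 0 in the mature green and last libraries. The miR6023 site of Solyc01g014930 was listed at 0 at mature green. Close pairing on an RLP gene thus came with values from 0 to 30 TP10M, and no RLP site was listed in the youngest fruit.

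**Figure D3:**
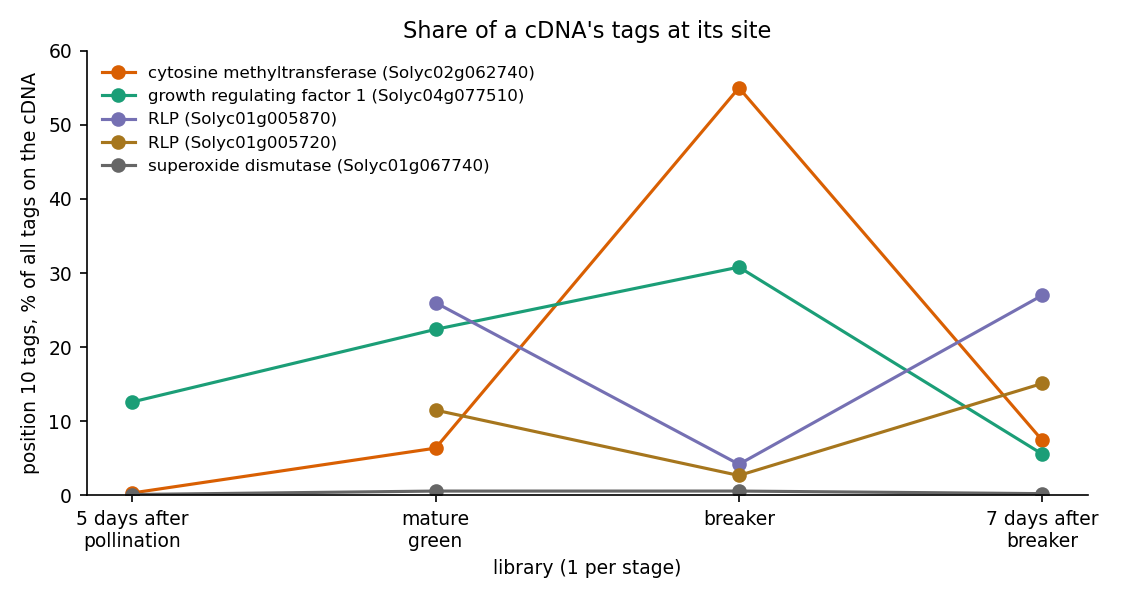
Tags opposite position 10 as a share of all tags on the cDNA (y axis, %) in each library (x axis) for 5 genes. A missing point means that no peak was listed; the methyltransferase site peaked at 55.0% at breaker, where both RLP sites were at their lowest.

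Genes of nutrient and copper use made up the next group. Solyc04g054730 (chromosome 4, position 311, penalty 3.5) is annotated as High affinity sulfate transporter 2, and miR395 is known in Arabidopsis to target a sulfate transporter and ATP sulfurylases. Its site had 14 TP10M at mature green and 1 TP10M at 7 days after breaker, with category 0 in both, and was not listed in the other libraries. These were 16.1% and 9.09% of cDNA totals of 87 and 11 TP10M. The mature green library alone gave a peak of any height. Opposite positions 9 and 11 it was listed at 0 TP10M at mature green.

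Copper proteins are known in Arabidopsis as targets of miR397 (laccases), miR398 (superoxide dismutases) and miR408 (blue copper proteins). Solyc01g067740 (chromosome 1, position 75, penalty 4), a superoxide dismutase under miR398, had 7, 40, 69 and 37 TP10M opposite position 10, lowest in the youngest fruit. With cDNA totals of 6308 to 16232 TP10M the site held at most 0.578% of the cDNA's tags, and it had category 2 throughout. Yet 95.6% of the alignment's tags lay opposite position 10. The laccases Solyc02g085110 and Solyc02g085120 under miR397 had 1 TP10M each at 5 days after pollination, opposite position 11. The blue copper protein Solyc01g090120 under miR408 was listed at 0.

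Of the machinery that makes small RNAs, Solyc10g005130 (chromosome 10, position 3259, penalty 2), annotated as Ribonuclease 3-like protein 3, paired with miR162, whose known target in Arabidopsis is the Dicer enzyme DCL1. It had 2, 3, 0 and 0 TP10M opposite position 10 and 2 TP10M opposite position 9 in the first library. The site was thus near the lowest value the tables hold in each library. The miR1919 site of Solyc02g066910, an organic anion transporter, had 1 TP10M at most.

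A few further sites stood out with low values. Solyc09g055760, annotated as T-snare (SNARE proteins fuse vesicles with membranes), had 3, 1, no listing and 3 TP10M under miR6023, with category 0 in the last library. Solyc05g008980, a receptor-like protein kinase under miR5303, had 1 TP10M with category 1 at breaker. The authors' deposited table gave both a q-value of 0.04. A q-value under the limit therefore went with peaks of 1 to 142 TP10M on this list. Solyc06g007320, a ubiquitin-activating enzyme E1 (the first enzyme of ubiquitin tagging), had 2, 10, 3 and 9 TP10M under miR396 and 85.7% of its tags opposite position 10, but never category 0 or 1. Solyc04g080590, a proteasome alpha subunit under miR5301_star, had 12, 8, 1 and 3 TP10M opposite position 10 and 11, 2, 2 and 10 opposite position 9, so its ends were not confined to 1 base.

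**Figure D4:**
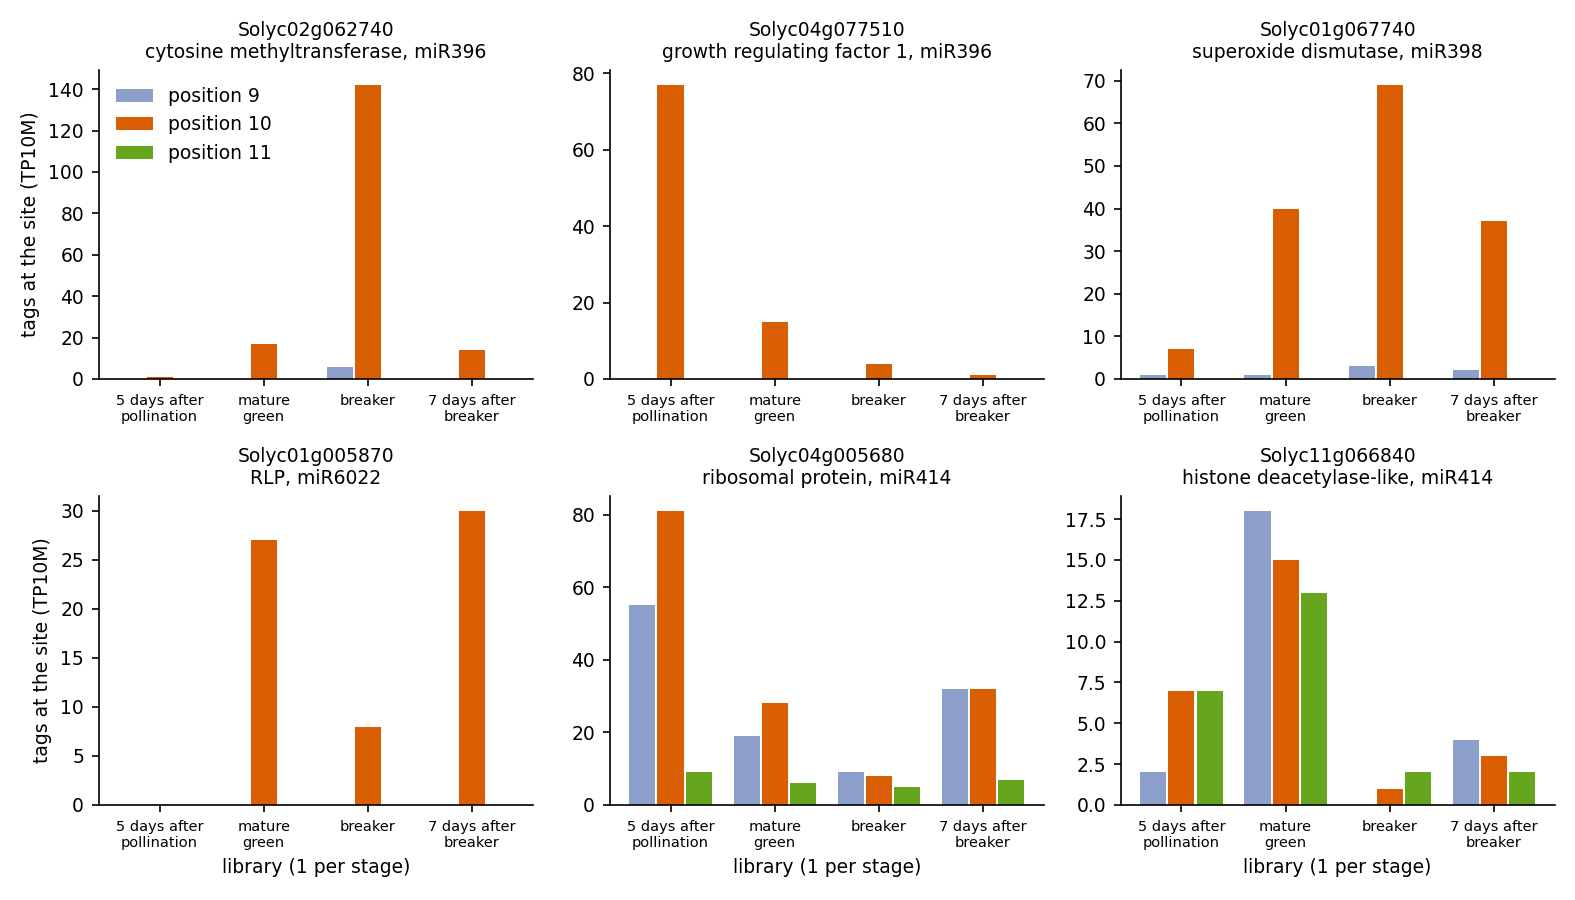
Tags at 6 alignments (y axis, TP10M, with its own scale in each panel) opposite positions 9, 10 and 11 in each library (x axis). No bar means 0 or not listed; the 4 alignments under miR396, miR398 and miR6022 have nearly all tags opposite position 10, while the 2 under miR414 have tags opposite all 3 positions.

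Under miR414 the 3 cDNAs with the highest peaks had tags opposite all 3 positions. Solyc04g005680 (chromosome 4), a ribosomal protein, had 81, 28, 8 and 32 TP10M opposite position 10, at position 1115 of the cDNA. Opposite position 9 it had 55, 19, 9 and 32 TP10M, and opposite position 11 it had 9, 6, 5 and 7. All these peaks had category 2, and the position 10 site held at most 1.35% of the cDNA's tags. Both main positions were highest in the youngest fruit and lowest at breaker, as was the whole cDNA (5998, 2857, 2165 and 2566 TP10M).

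Solyc11g066840, a histone deacetylase-like protein (such enzymes remove acetyl groups from histones), had 2, 18, 0 and 4 TP10M opposite position 9. It had 7, 15, 1 and 3 opposite position 10 and 7, 13, 2 and 2 opposite position 11. All 3 positions were highest at mature green, as was the whole cDNA (740, 1622, 260 and 668 TP10M in stage order). Solyc03g115230, a ClpB chaperone (heat shock proteins that dissolve protein aggregates), had 0, 2, 1 and 24 TP10M opposite position 9 and 1, 7, 1 and 10 opposite position 10, highest in the last library. Its cDNA total was also highest there, at 5741 TP10M against 245 to 1554 in the others.

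Of the 8 miR414 sites with category 0 or 1, only Solyc03g058140 had more than 8 TP10M. This Unknown Protein (chromosome 3, position 16, penalty 1.5) had 7 and 12 TP10M in the first 2 libraries, with category 0 in both and no listing later. In the authors' deposited table its q-values were 0.09 and 0.08. It was also the only miR414 alignment of some size with over 90% of its tags (90.5%) opposite position 10. Solyc07g061900, a 50S ribosomal protein L4, had 3, 0, 2 and 8 TP10M opposite position 9, with category 1 in the last library. The other 6 sites had 1 to 3 TP10M. They were Solyc01g010120 opposite position 9, Solyc07g021100 and Solyc09g074350 opposite position 10, and Solyc04g076970 (a bZIP transcription factor) and 2 sites of Solyc12g005510 (RING-finger protein like) opposite position 11. On Solyc09g074350 a peak of 1 TP10M had category 0 because the whole cDNA had 3 TP10M.

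The larger alignments were also compared by the position at which their ends lay. An alignment here is a small RNA laid on a cDNA in 1 register, so that its bases opposite positions 9, 10 and 11 are neighbours. There were 359 alignments, of which 122 had all 3 positions listed. At least 20 TP10M over the 4 libraries was reached by 27 alignments, 17 of them under miR414. At least 90% of tags opposite position 10 was found for 1 of the 17 under miR414 and for 6 of the 10 others. At least 50% opposite position 11 was found for 3 of the 17 and 0 of the 10. The 6 others were the 3 RLP copies, the growth regulating factor, the methyltransferase and the superoxide dismutase. The 3 RLP copies had identical values, and several of the 17 under miR414 repeated each other's values too. The same shares over all alignments in the tables are not given, so these counts are a description only.

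**Figure D5:**
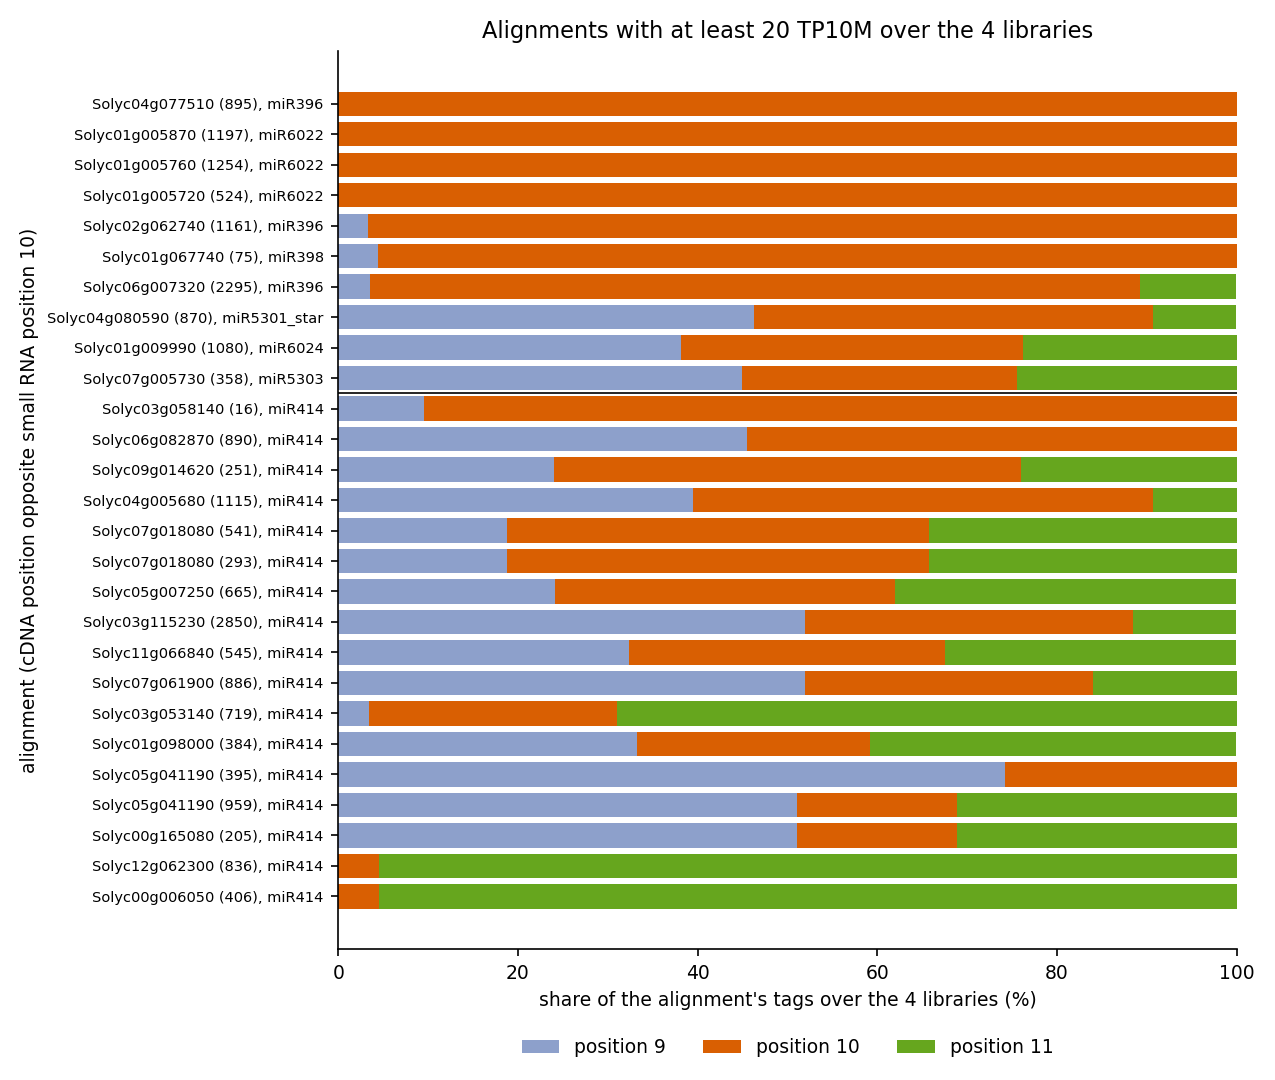
Share of tags opposite positions 9, 10 and 11 (x axis, % of the alignment's tags over the 4 libraries) for the 27 alignments with at least 20 TP10M (y axis, named by cDNA, position and small RNA). Other names lie above the line and miR414 below it. Of these, 6 of 10 above and 1 of 17 below have at least 90% opposite position 10. The 3 RLP copies above, and some alignments below, repeat each other's values.

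Summed tags opposite position 11 were highest in the breaker library. The sites had 121, 91, 223 and 103 TP10M opposite that position in stage order, with shared values counted at each site. Of the breaker value, 154 TP10M lay at 13 sites of at least 10 TP10M, all under miR414, on 10 cDNAs of which 9 were annotated as Unknown Protein. The same 13 sites had 10, 14 and 15 TP10M in the other libraries. Among the 13 were 5 sites with 11 TP10M each at breaker, 4 with 10 each and a pair with 15 each. Each of these groups had the same values in all libraries. Without the 13 sites the sums opposite position 11 were 111, 77, 69 and 88 TP10M. These 13 were chosen by their breaker values, so their lower values elsewhere and the sums without them are a description only. The highest were Solyc03g053140 with 1, 1, 17 and 1 TP10M and the pair Solyc00g006050 and Solyc12g062300 with 1, 1, 15 and 4 TP10M each. Their whole cDNAs were highest at breaker too, with 187, 118, 849 and 133 TP10M for Solyc03g053140. Solyc00g006050 had 180, 132, 1000 and 152 TP10M and Solyc12g062300 had 299, 216, 1696 and 234. The site's share of the cDNA was highest at breaker (2.0%) on Solyc03g053140. On the pair it was higher in the last library (2.63% and 1.71%) than at breaker (1.5% and 0.884%).

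Many of these sites repeat each other. Of the 56 sites with at least 5 TP10M, 21 shared their values in all 4 libraries with another site of the same name and position, in 7 groups, and 18 of the 21 were under miR414. 1 group had 5 sites with 1, 1, 11 and 1 TP10M opposite position 11, on 5 cDNAs including Solyc05g041190 and Solyc07g018080. Another had 4 sites with 1, 10 and 0 TP10M in the last 3 libraries, on Solyc01g020410, Solyc03g053030 and Solyc07g018080. Counted once, the 56 sites gave 42 sets of values. Whether these are the same tags mapped to several cDNAs was not tested.

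Among 41 of these sets with 1 highest library, 13, 11, 12 and 5 were highest in the libraries in stage order. Of the sets not under miR414, the last library was highest in 1 and the others in 5, 5 and 3. No stage therefore held most of these sets. The same counts over all sites are not given, so a low count in a library is not read as a trait of these sites. The RLP sites were the set not under miR414 that was highest in the last library.

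Differences between neighbouring stages were called where the values of a pair of libraries added up to 10 TP10M or more and differed at least 2-fold on the log2 scale with 1 TP10M added, which understates differences of low values. From 5 days after pollination to mature green, 19 sites could be compared, of which 9 were higher (47.4%, background 29.7%) and 4 lower (21.1%, background 27.7%). From mature green to breaker, 17 of 35 were higher (48.6%, background 34.6%) and 14 lower (40.0%, background 47.1%). 16 of those 17 were under miR414 and 13 lay opposite position 11, many with shared values. The balance of directions turned with identical copies counted once (8 higher, 12 lower), without the position 11 table (4 higher, 13 lower) and without miR414 (1 higher, 7 lower). From breaker to 7 days after breaker, 10 of 29 were higher (34.5%, background 38.2%) and 14 lower (48.3%, background 34.7%), of which 13 were under miR414. This balance turned too, to 8 higher and 7 lower with identical copies counted once, 10 and 1 without the position 11 table, and 5 and 1 without miR414. Neighbouring comparisons share a library, and with so few sites each call stands for single libraries.

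At the pairing limit itself little changed. Among the 272 sites with a penalty of 4, 4 had category 0 or 1, and among the 338 just outside, at 4.5, 5 had it. Both counts lie near the background of 189 of all 12619 sites (1.5%). Those outside were Solyc01g058100, an Unknown Protein under miR390 with 21 and 4 TP10M in the first 2 libraries, Solyc02g032870 under miR396 with at most 2 TP10M and Solyc12g088670, a cathepsin B-like proteinase under miR396, with at most 3. The others were Solyc06g068930, a jasmonate ZIM-domain protein under miR169 with at most 2 TP10M, and Solyc11g072120 under miR164 with at most 1 TP10M opposite position 9.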

How the data were processed

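PARE tags of 4 whole-fruit libraries were used, 1 per stage. Per the labels' protocols, polyadenylated RNA was carried through PARE and sequenced as MmeI tags. Per the submitters' processing notes, CASAVA 1.8.0 was among the tools. For the aligner, tag filters and CleaveLand version, nothing was given in the sources used here. The authors deposited 3 tables of CleaveLand output on ITAG2.3 cDNAs, per the file headers. The deposited peak and cDNA values are a score in TP10M, rounded to whole numbers by the authors, and not counts, so no count test or counting interval was made. The deposited category and the TargetFinder penalty are scores too, per the file headers. The deposited p-values and q-values are the authors', with q-values only at category 0 or 1.

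Filler entries (7675) were dropped, which left 12952 entries. A site was a cDNA and position, counted once; class words were matched without regard to case. A dash added 0 to sums. Version suffixes of gene identifiers are not printed. Members of the list, gene lists and tests were chosen with earlier results of these data known. Named are sites of category 0 or 1, the highest 3 per position, the largest stage differences, the highest site of each name from 10 TP10M, the further known classes, and the category 0 or 1 sites just outside the limit; sites of other large alignments were named after their values were seen. Shares have exact Clopper-Pearson 95% intervals. With 1 library per stage there is no test, and leaving out a replicate was not possible. Scripts were tested on simulated data and used Python 3.11.15, pandas 2.3.3, numpy 2.4.6 and scipy 1.17.1. Alternatives changed the penalty limit, class words, copies, tables, thresholds and scaling. Sequences were not used here.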

Additional observations from a re-analysis of the deposited data

How the results depend on the processing

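No paired analysis was possible because each stage has 1 library, so the replicate number pairs nothing. Depth is unknown and values are rounded, so peaks of 0 to 3 TP10M cannot be ranked. Of 235 values under alternatives, 135 stayed close to the reported value (shares of sites within the exact interval, shares of tags within 10 percentage points, sums and counts within 1.5 times) and 100 moved. Values below are in stage order, and counts of 2-fold calls run through the 3 stage pairs, each higher then lower. Where values moved, the cause was not tested unless the alternative's own construction (fewer or more sites) shows it.

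A penalty limit of 3 left 9 sites of category 0 or 1, 21 sites of at least 5 TP10M, sums of 146, 222, 221 and 219 TP10M, position 10 shares of 40.4%, 29.9% and 60.7% at all stages but mature green, and 3, 0, 8, 5, 4 and 6 calls. A limit of 3.5 left 30 sites of at least 5 TP10M, sums of 292, 320, 406 and 338 TP10M, and 5, 1, 10, 7, 6 and 8 calls. At 4.5, 27 sites were higher at breaker and 24 lower after it.

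Class words matched with case let in capitalised annotations: 38 sites of category 0 or 1, a position 10 share of 11.3%, 85 sites of at least 5 TP10M, sums of 2387, 2469, 2401 and 1510 TP10M with 86%, 88.5%, 83.2% and 76.7% opposite position 10, and 21 higher and 11 lower at mature green and 22 lower at breaker. Leaving out the further target class words gave tag shares of 51.4% at mature green and 37.1% in the last library, and 5 sites higher at mature green. Without the most abundant site the breaker share was 34.4%.

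Identical copies counted once gave 59.7% opposite position 10 at breaker, with 8 sites higher and 12 lower at breaker and 8 higher and 7 lower after it. Sites of at least 5 TP10M were then 18, 21, 17 and 14 by library, against 18, 23, 30 and 18. Each cDNA once gave a share of category 0 or 1 of 11.1%, 34 sites of at least 5 TP10M, sums of 354, 377, 430 and 371 TP10M with 73.4%, 76.4%, 62.3% and 65.2% opposite position 10, 2 sites lower at mature green and 11 higher at breaker. Without the position 11 table there were 36 sites of at least 5 TP10M, shares of 66%, 73% and 73% in the first 3 libraries, 440 TP10M at breaker, 4 sites higher at breaker and 1 lower after it.

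A q-value limit left 6 sites. A minimum of 10 TP10M left 34 and a minimum of 1 gave 421. A minimum sum of 50 TP10M left 0 sites higher at mature green, 1 higher and 0 lower at breaker, and 0 higher and 1 lower after it. Sites listed in both libraries had 5 higher at mature green.

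The next alternatives were chosen after seeing the data. Without miR414 there were 10 sites of category 0 or 1 (15.6% of position 10 sites), 17 sites of at least 5 TP10M and sums of 202, 265, 272 and 235 TP10M, with 65.3%, 83.4%, 93% and 79.1% opposite position 10. Its calls were 2 lower at mature green, 1 higher and 7 lower at breaker, and 5 higher and 1 lower after it. Identical values counted once under any annotation gave 11 sites of category 0 or 1, 61.8% at breaker, 7 sites higher at breaker and 6 lower after it. Without class genes worded otherwise, 5 sites were higher at mature green and 9 lower at breaker. Without the breaker library 37 sites reached 5 TP10M.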
